A study of Mus musculus with 24 samples.

Results

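The genes described here are 7 of cholesterol synthesis and its control in the dentate gyrus of the mouse: Hmgcs1, Idi1, Fdft1, Sqle and Cyp51, which encode enzymes, and Srebf2 and Insig1, which encode regulators. They were chosen by name as the rows of these symbols in the deposited count table, and all 7 of 7 were found among its 26667 genes and were among the 18286 with counts high enough to test. Bulk RNA sequencing gave 24 libraries. In 5 libraries from APP/PS1 mice BCI-838 and a running wheel were combined (BCI-838 + exercise), in 4 APP/PS1 mice had BCI-838 alone, in 5 APP/PS1 mice had the wheel alone (exercise), in 5 APP/PS1 mice had neither (APP/PS1 control), and the other 5 came from WT mice of the C57BL6/J strain. All groups other than WT carry the APP/PS1 transgenes, which encode human amyloid precursor protein and presenilin 1 and lead to amyloid plaques. BCI-838 is a pro-drug, taken by mouth, of an antagonist of the glutamate receptors mGluR2 and mGluR3. It was dosed at 5 mg/kg each day for 1 month, and wheels were freely available for 1 month. The series design mentions a vehicle without saying whether WT mice received it, and it gives 5 mice per group, although BCI-838 alone is represented here by 4. The promoter of the transgenes and the age and sex of the mice are not stated in the labels. The study's question was the effect of the drug, of running and of both on neurogenesis and behaviour in this amyloid model.

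Cholesterol is made from acetyl-CoA through the mevalonate pathway, squalene and a series of sterols. When sterols are scarce in the endoplasmic reticulum, the transcription factor SREBP-2, the product of Srebf2, is carried to the Golgi by SCAP, cut free, and raises transcription of the enzymes and of Srebf2 itself. INSIG-1 holds SCAP back when sterols are plentiful, and its gene is itself a target of the pathway. The brain makes nearly all of its own cholesterol, since lipoproteins of the blood do not cross the blood-brain barrier. Oligodendrocytes use it for myelin, and astrocytes pass it to neurons on lipoproteins that carry apolipoprotein E.

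Total counts were between 48656360 and 64632882 per library. App, the gene of the amyloid precursor protein, was between 2467 and 4054 CPM in the 19 APP/PS1 libraries and between 1452 and 2073 CPM in the 5 WT libraries. Granule neuron markers were found in every library, and the transcription factor Prox1 lay between 14.2 and 175 CPM. The WT replicate 3 library had the least Prox1 and the lowest summed level over the 8 genes of the granule neuron list, 166 CPM, against up to 1071 CPM elsewhere. The next lowest sums were 252 CPM in APP/PS1 control replicate 3, 366 and 375 CPM in BCI-838 + exercise replicates 5 and 4, and 408 CPM in exercise replicate 4. The libraries of APP/PS1 control replicates 2, 4 and 5 and of BCI-838 + exercise replicate 5 held over 100 CPM of Ttr, which choroid plexus makes in bulk, up to 1615 CPM. Without these 4 libraries rich in Ttr, APP/PS1 control keeps 2 libraries and BCI-838 + exercise 4, and summaries of the members against APP/PS1 control are given below with and without them.

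Promoters of members are shown first, because SREBP-2 is known to act on its targets through sterol response elements in promoters. RefSeq promoter entries (build GRCm38.p6, 250 bases before to 50 after the annotated start) matched 5 of the 7 members: Hmgcs1, Idi1, Srebf2, Insig1 and Cyp51. Printed are Hmgcs1 at chr13:119690101-119690400 on the plus strand, Srebf2 at chr15:82147019-82147318 on the plus strand, Cyp51 at chr5:4104648-4104947 on the minus strand and Insig1 at chr5:28071162-28071461 on the plus strand, each 5′ to 3′ along its gene. Capitals mark TCACNCCAC or TCACCNCA (cores of the sterol response element), CCAAT (the letters that NF-Y reads) and CACGTG (an E-box), each on either strand, so that a CCAAT on the other strand reads as ATTGG.
Hmgcs1: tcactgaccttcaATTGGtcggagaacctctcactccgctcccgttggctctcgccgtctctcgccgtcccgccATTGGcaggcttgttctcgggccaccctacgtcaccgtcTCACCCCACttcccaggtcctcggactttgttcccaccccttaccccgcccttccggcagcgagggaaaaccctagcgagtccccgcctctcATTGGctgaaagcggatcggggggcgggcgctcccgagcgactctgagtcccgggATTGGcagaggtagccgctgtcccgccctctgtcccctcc
Srebf2: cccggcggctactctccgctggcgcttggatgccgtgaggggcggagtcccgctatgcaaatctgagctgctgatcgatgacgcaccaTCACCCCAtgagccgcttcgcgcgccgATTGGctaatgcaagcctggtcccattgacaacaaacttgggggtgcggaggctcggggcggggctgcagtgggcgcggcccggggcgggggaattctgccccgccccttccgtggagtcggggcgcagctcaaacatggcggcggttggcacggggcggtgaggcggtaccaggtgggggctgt
Cyp51: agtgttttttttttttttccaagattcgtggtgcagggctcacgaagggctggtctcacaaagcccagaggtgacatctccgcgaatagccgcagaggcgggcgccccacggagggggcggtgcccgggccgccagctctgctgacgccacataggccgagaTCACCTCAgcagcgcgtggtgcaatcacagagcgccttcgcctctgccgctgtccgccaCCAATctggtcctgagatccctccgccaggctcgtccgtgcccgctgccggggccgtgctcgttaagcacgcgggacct
Insig1: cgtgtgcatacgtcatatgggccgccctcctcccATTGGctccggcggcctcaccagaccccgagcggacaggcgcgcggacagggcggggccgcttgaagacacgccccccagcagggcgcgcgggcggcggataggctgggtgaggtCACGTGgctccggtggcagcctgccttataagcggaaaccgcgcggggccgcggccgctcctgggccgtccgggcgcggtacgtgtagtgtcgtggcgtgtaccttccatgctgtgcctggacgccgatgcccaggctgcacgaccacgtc
The Hmgcs1 promoter holds TCACCCCAC at position -137 from the annotated start, which matches both sterol motifs at once. Srebf2 holds TCACCCCA at position -162 and Cyp51 holds TCACCTCA at position -88. Neither motif is in the windows of Insig1 and Idi1, and the Insig1 window has the E-box at position -101. Of 27025 promoters of this length, 1.22% hold TCACNCCAC, 4.29% hold TCACCNCA and 7.24% hold the E-box. The CCAAT motif is in all 5 windows, and in 37.9% of all promoters. The motifs were picked after these promoters had been read, and a match describes letters only.

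All 7 members were well expressed. Levels were CPM, the counts divided by library size after TMM scaling, and to compare genes they were divided by the length of all annotated exons (CPM per kb). On the scale per kb the order over the 24 libraries was Hmgcs1 with 48.4 ± 7.21 (SD), Srebf2 with 34.4 ± 4.50, Insig1 with 26.0 ± 3.89, Fdft1 with 16.4 ± 2.33, Cyp51 with 14.5 ± 1.48, Sqle with 9.74 ± 1.25 and Idi1 with 4.80 ± 0.713. Fdft1 and Cyp51, neighbours in this order, differed by less than the SD of Fdft1. The highest library exceeded the lowest by 1.53-fold for Cyp51 and by up to 1.94-fold for Insig1. Within groups the SD of log2 CPM was between 0.15 for Cyp51 and 0.22 for Hmgcs1, and its median was 0.15 over the 10406 genes with a mean of at least 10 CPM. In bulk tissue, fewer cells of a type and less RNA per cell cannot be told apart.

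**Figure D1:**
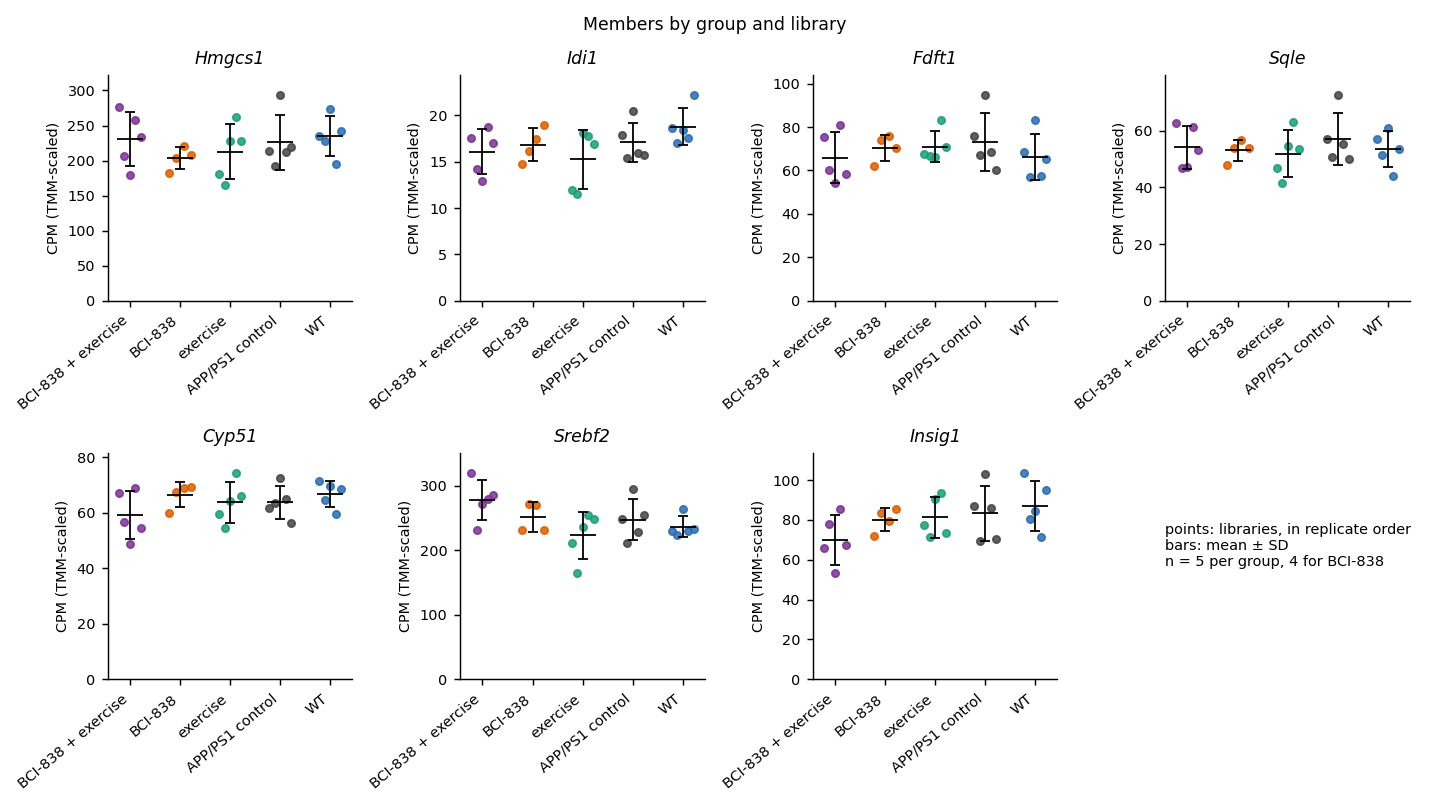
Levels of the 7 members (CPM, vertical axes from 0) in the 24 libraries, by group. Points are libraries, bars are the mean and SD (n = 5, or 4 for BCI-838). In each panel the ranges of the groups overlap, and Srebf2 has its highest mean, 277 CPM, in BCI-838 + exercise.

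Among the enzymes, Hmgcs1 encodes HMG-CoA synthase, an early enzyme of the mevalonate pathway, and lies on chromosome 13 from 119690379 to 119708260 on the plus strand (GRCm38). Hmgcs1 had 276, 207, 180, 258 and 234 CPM in BCI-838 + exercise, 183, 204, 221 and 207 CPM in BCI-838, 181, 165, 228, 262 and 227 CPM in exercise, 213, 193, 293, 212 and 220 CPM in APP/PS1 control, and 236, 227, 274, 196 and 242 CPM in WT. The libraries of all 5 groups overlapped, and both the highest value (an APP/PS1 control) and the lowest (an exercise library) came from APP/PS1 mice. Hmgcs1 averaged 231 ± 38.6 CPM in BCI-838 + exercise, 204 ± 15.9 CPM in BCI-838, 213 ± 39.4 CPM in exercise, 226 ± 38.9 CPM in APP/PS1 control and 235 ± 28.2 CPM in WT (SD). Against APP/PS1 control its log2 fold change was 0.03 (SE 0.13) in BCI-838 + exercise, -0.15 (SE 0.14) in BCI-838 and -0.09 (SE 0.13) in exercise.

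Idi1 encodes isopentenyl diphosphate isomerase, which makes the activated isoprene unit, and lies on chromosome 13 from 8885501 to 8892451 on the plus strand. It had 17.6, 14.3, 12.9, 18.8 and 17.0 CPM in BCI-838 + exercise, 14.8, 16.2, 17.5 and 18.9 CPM in BCI-838, 12.0, 11.6, 18.1, 17.8 and 16.9 CPM in exercise, 17.9, 15.4, 20.5, 16.0 and 15.7 CPM in APP/PS1 control, and 18.7, 17.1, 18.4, 17.6 and 22.2 CPM in WT. The lowest 3 values were in exercise replicates 1 and 2 and in BCI-838 + exercise replicate 3, while the lowest WT library had 17.1 CPM. The difference for Idi1 between exercise and WT was -0.30 on the log2 scale (SE 0.13), with an unadjusted p of 0.0318 and an adjusted p of 0.534 in edgeR's quasi-likelihood test over all 18286 genes. Leaving out each library in turn moved that value between -0.37 and -0.22. Idi1 is the least abundant of the 7, with counts between 638 and 1293 per library.

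Fdft1 and Sqle encode squalene synthase and squalene epoxidase, the first steps that serve sterols alone. Fdft1 (chromosome 14 from 63145150 to 63179578, minus strand) averaged 65.8 ± 11.7 CPM in BCI-838 + exercise, 70.4 ± 6.10 CPM in BCI-838, 70.8 ± 7.09 CPM in exercise, 73.2 ± 13.3 CPM in APP/PS1 control and 66.3 ± 10.6 CPM in WT (SD). Sqle (chromosome 15 from 59315077 to 59331192, plus strand) averaged 54.2 ± 7.62 CPM in BCI-838 + exercise, 53.1 ± 3.65 CPM in BCI-838, 52.0 ± 8.13 CPM in exercise, 57.1 ± 9.13 CPM in APP/PS1 control and 53.4 ± 6.31 CPM in WT (SD). For both genes the highest of the 24 libraries was APP/PS1 control replicate 3, with 94.7 CPM of Fdft1 and 72.6 CPM of Sqle. Cyp51, the lanosterol demethylase (chromosome 5 from 4081145 to 4104746, minus strand), was the steadiest member. Its group means were 59.1 ± 8.60 CPM in BCI-838 + exercise, 66.5 ± 4.42 CPM in BCI-838, 63.6 ± 7.42 CPM in exercise, 63.7 ± 5.94 CPM in APP/PS1 control and 66.7 ± 4.66 CPM in WT (SD). Exons of Fdft1 share up to 774 bases with Ctsb on the opposite strand, and those of Cyp51, Hmgcs1 and Idi1 share 166, 458 and 323 bases with Akap9, Gm48342 and Gm48574. No source used here says whether counting used strand, so reads from these stretches cannot be told apart.

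The regulators had values of opposite sign in BCI-838 + exercise, and neither passed the adjusted threshold. Srebf2, the gene of SREBP-2, lies on chromosome 15 from 82147181 to 82205379 on the plus strand. It had 319, 232, 272, 279 and 286 CPM in BCI-838 + exercise, 232, 271, 270 and 231 CPM in BCI-838, 211, 165, 236, 254 and 248 CPM in exercise, 249, 211, 295, 228 and 255 CPM in APP/PS1 control, and 230, 223, 264, 230 and 233 CPM in WT. Of the 5 BCI-838 + exercise libraries 4 were above every exercise library, and replicate 2 fell inside the exercise range. The log2 fold change of Srebf2 in BCI-838 + exercise against exercise was 0.32 (SE 0.11), a ratio of 1.25 with a 95% interval of 1.07 to 1.45. Its unadjusted p was 0.00762 and its adjusted p was 0.163 in edgeR's quasi-likelihood test, the lowest adjusted p of any member in any comparison. The adjusted p over the alternative settings ranged between 0.0569 and 0.391.

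Against WT, Srebf2 in BCI-838 + exercise had a log2 fold change of 0.23 (SE 0.11), with an unadjusted p of 0.0425 and an adjusted p of 0.771, and between 0.17 and 0.29 when each library was left out in turn. Averaged over the wheel, the drug's log2 fold change for Srebf2 was 0.17 (SE 0.08), with an unadjusted p of 0.0425 and an adjusted p of 0.263 by edgeR. By limma's voom fit with quality weights it was 0.22 with an adjusted p of 0.0463, the only value of a member that passed under any setting. By DESeq2 the adjusted p was 0.213. Without the 4 libraries rich in Ttr the edgeR log2 fold change was 0.10 with an adjusted p of 0.664. The interaction of drug and wheel for Srebf2 was 0.30 on the log2 scale (SE 0.16) with an adjusted p of 0.560.

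CA field pyramidal neurons border the dentate gyrus, and their markers had values of the same sign as Srebf2. All 8 of 8 genes of that list were higher in BCI-838 + exercise than in exercise, at a median of 0.46 on the log2 scale, and edgeR called 0 of the 8, with 1 at an unadjusted p under 0.05. Their summed level was between 1151 and 2266 CPM in BCI-838 + exercise and between 822 and 1549 CPM in exercise. Endothelial markers had the opposite sign: 8 of 8 were lower in BCI-838 + exercise than in exercise, at a median of -0.38, with 0 called and 6 at an unadjusted p under 0.05. Of oligodendrocyte and myelin genes 10 of 12 were lower (median -0.19), and of the dorsal midbrain markers 7 of 7 (median -1.37), in both lists with 0 called and 0 at an unadjusted p under 0.05. Choroid plexus and ependyma markers were higher in 11 of 12 cases (median 1.16), with 0 called and 1 at an unadjusted p under 0.05. Microglia markers were higher in 6 of 8 cases (median 0.08) and granule neuron markers lower in 6 of 8 (median -0.10), with 0 of either called. Without the 4 libraries rich in Ttr, Srebf2 was at 0.31 with an adjusted p of 0.290, while 6 of 8 CA field markers were higher at a median of 0.19 and 8 of 8 endothelial markers were lower at a median of -0.37. The part of these cell types in the value of Srebf2 was not tested beyond fits with covariates. With the CA field list minus the granule neuron list as a covariate (the tissue covariate), the log2 fold change of Srebf2 in this comparison was 0.24 with an adjusted p of 0.167. Fits with an oligodendrocyte or a choroid plexus covariate are among the 35 alternatives. Over these the log2 fold change of Srebf2 lay between 0.24 and 0.37.

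Insig1 (chromosome 5 from 28071363 to 28078662, plus strand) had 65.7, 78.1, 53.1, 85.6 and 67.2 CPM in BCI-838 + exercise, 72.1, 83.4, 79.4 and 85.5 CPM in BCI-838, 77.2, 71.6, 90.4, 93.6 and 73.2 CPM in exercise, 87.0, 69.3, 103, 86.2 and 70.5 CPM in APP/PS1 control, and 103, 80.4, 84.5, 71.6 and 95.1 CPM in WT. The lowest 3 of the 24 values were BCI-838 + exercise libraries, and the other 2 libraries of that group lay within the ranges of APP/PS1 control and WT. Its log2 fold change in BCI-838 + exercise was -0.22 (SE 0.13) against exercise, -0.20 (SE 0.13) against BCI-838, -0.25 (SE 0.13) against APP/PS1 control and -0.31 (SE 0.13) against WT. These share the BCI-838 + exercise libraries and are not independent. Against WT the unadjusted p was 0.0202 and the adjusted p 0.674 by edgeR, and the value lay between -0.40 and -0.23 when each library was left out in turn. Against APP/PS1 control it was -0.43 without the 4 libraries rich in Ttr, with an adjusted p of 0.417 and 2 APP/PS1 control libraries left.

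**Figure D2:**
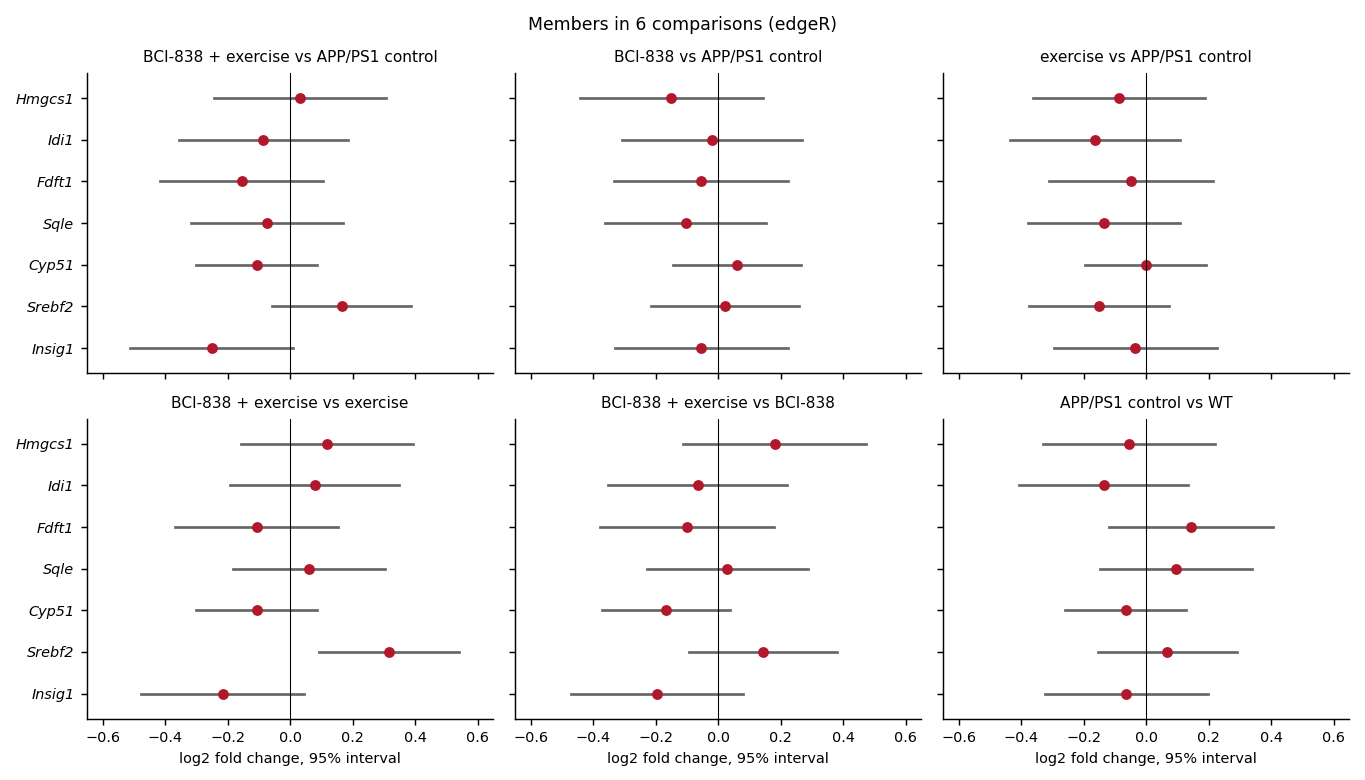
Log2 fold changes (horizontal axis) of the 7 members in 6 comparisons, with 95% intervals from edgeR. Of these 42 intervals only that of Srebf2 in BCI-838 + exercise vs exercise, at 0.32, leaves out 0.

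Over all 12 comparisons edgeR called 0 of 7 members at an adjusted p under 0.05. Of the 84 values 5 had an unadjusted p under 0.05, namely those of Srebf2, Insig1 and Idi1 given above. DESeq2 called 0 members, while it called between 0.0328% and 3.68% of all genes, and voom called 1 member once. Over the 63 values from pairs of groups the largest ratio upward was 1.25 (Srebf2) and the largest downward 1.24 (Insig1). Their 95% intervals reached at most 1.45-fold up and 1.49-fold down. In all of the 9 comparisons of group pairs the groups overlapped for 7 of 7 members.

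The members' counts are set here beside those over all tested genes. For BCI-838 + exercise against APP/PS1 control edgeR called 0 genes (0%), 10.6% of genes had an unadjusted p under 0.05 (0 of 7 members), and groups did not overlap for 1.01%. For BCI-838 against APP/PS1 control it called 0 genes (0%), 10.2% had an unadjusted p under 0.05 (0 of 7 members), and 4.71% did not overlap. For exercise against APP/PS1 control 1 gene was called (0.00547%), 5.44% had an unadjusted p under 0.05 (0 of 7 members), and 0.585% did not overlap. All 7 members had negative values in that comparison, between -0.16 and -0.00 with a median of -0.09 (all genes 0.01).

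The values against APP/PS1 control changed when the libraries rich in Ttr were left out. Without them the members lay between -0.33 and -0.08 in exercise against APP/PS1 control, with a median of -0.27. In BCI-838 + exercise against APP/PS1 control the median was -0.09 with all libraries and -0.25 without those 4. Hmgcs1 turned there to -0.14 and Srebf2 was at 0.02. In BCI-838 against APP/PS1 control the median was -0.06 with all libraries and -0.25 without those 4, and the number of members with a positive value was 2 with all libraries and 0 without them. With 2 APP/PS1 control libraries left, replicates 1 and 3, edgeR called 0 members in each of these comparisons, with 1 value, that of Insig1 in BCI-838 + exercise, at an unadjusted p under 0.05. Replicate 3 had the highest Hmgcs1, Fdft1 and Sqle of all 24 libraries (293, 94.7 and 72.6 CPM) and a granule neuron sum of 252 CPM. The part of this library in the changed values was not tested. Choroid plexus and ependyma markers were 12 of 12 lower in exercise than in APP/PS1 control (11 at an unadjusted p under 0.05), and endothelial markers were 8 of 8 higher (3 at an unadjusted p under 0.05), with 0 of either list called. No member was called in exercise against APP/PS1 control under any of 35 alternatives, among them a fit with a choroid plexus covariate. Beyond that fit, the part of these markers in the members' values was not tested.

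Set against the single treatments, BCI-838 + exercise gave 0 calls against exercise (0%) and 0 against BCI-838 (0%). Against exercise 17.6% of genes had an unadjusted p under 0.05 (1 of 7 members, Srebf2) and 1.40% did not overlap, and against BCI-838 the shares were 14.3% (0 of 7 members) and 8.24%. The interaction of drug and wheel gave 0 calls (0%) and 9.60% at an unadjusted p under 0.05 (0 of 7 members). For the wheel averaged over the drug there were also 0 calls (0%), with 9.99% at an unadjusted p under 0.05 (0 of 7 members). The drug averaged over the wheel gave 55 calls (0.301%), none of them a member, and 18.0% at an unadjusted p under 0.05 (1 of 7 members). By voom, which called Srebf2 there, 12.0% of all genes were called.

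For APP/PS1 control against WT 2 genes were called (0.0109%), 2.76% had an unadjusted p under 0.05 (0 of 7 members) and 0.312% did not overlap. The members' median was -0.06, with 3 of 7 positive. Without the libraries rich in Ttr, which leaves 2 APP/PS1 control libraries (replicates 1 and 3), the median was 0.13. There 7 of 7 were positive, with values between 0.01 and 0.37, 0 called and 1 at an unadjusted p under 0.05. APP/PS1 control replicate 3 had the highest Hmgcs1, Fdft1 and Sqle of all 24 libraries, and its part in this change was not tested. Without WT replicate 3 the median was 0.01 with 4 of 7 positive. With all libraries, 12 of 12 choroid plexus and ependyma markers were higher in APP/PS1 control than in WT, 11 at an unadjusted p under 0.05 and 0 called. Among the treated groups, BCI-838 + exercise against WT gave 3 calls (0.0164%), 6.32% at an unadjusted p under 0.05 (2 of 7 members) and 0.541% without overlap. BCI-838 against WT gave 6 calls (0.0328%), 7.47% at an unadjusted p under 0.05 (0 of 7 members) and 3.62% without overlap. Exercise against WT gave 2 calls (0.0109%), 9.09% at an unadjusted p under 0.05 (1 of 7 members) and 0.875% without overlap. A p that misses the threshold does not show that the levels were the same.

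While the groups did not separate the members, single libraries did, and the 7 genes moved together. After the mean of its group was taken from each library, all 21 pairs of members had a positive correlation over the 24 libraries, with a median Pearson r of 0.78. Hmgcs1 and Sqle were the closest pair (r = 0.95, Spearman's rho = 0.93, permutation p = 1e-05, the smallest that 100000 permutations can give, and adjusted p = 5.25e-05 over the 21 pairs). Of the 21 pairs 20 passed after Benjamini-Hochberg adjustment, by Pearson's r and by Spearman's rho. The exception was the pair of regulators, Insig1 and Srebf2 (r = 0.28, rho = 0.26, permutation p = 0.222 by r and 0.255 by rho). For comparison, the median r over all pairs of the 10406 genes with at least 10 CPM was 0.01, and 5% of those pairs were above 0.61. The lowest r among the 20 member pairs that passed, 0.56 for Srebf2 and Cyp51, was under that value. The permutation test was not run on all pairs of genes, so the share of them that would pass is not known. With the 2 libraries farthest from the median left out of each pair, r lay between 0.19 and 0.93 with a median of 0.70. Without any one library the median r stayed between 0.73 and 0.79, and without the 4 libraries rich in Ttr it was 0.78. The pairs share libraries, depth and scaling.

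The regulators followed the enzymes less evenly than the enzymes followed each other in some pairs. Srebf2 correlated with Hmgcs1 at r = 0.81 and with Sqle at 0.79, and with Fdft1 and Cyp51 at 0.57 and 0.56. Insig1 correlated best with Cyp51 (r = 0.75). In BCI-838 + exercise replicate 1, Srebf2 was at its highest of all libraries with 319 CPM while Insig1 had 65.7 CPM, and in replicate 3 of the same group Insig1 was at its lowest with 53.1 CPM while Srebf2 had 272 CPM.

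**Figure D3:**
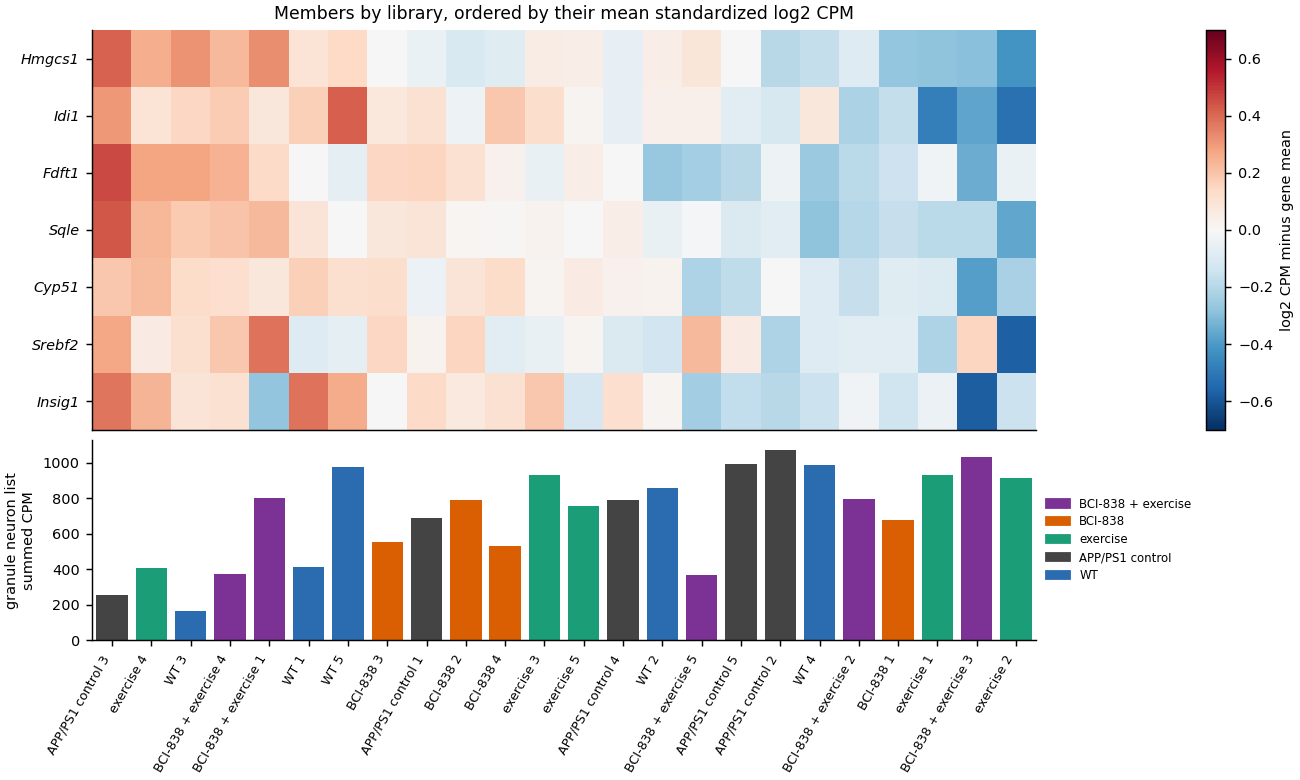
Upper panel: log2 CPM of each member minus the gene's mean (colour scale) in the 24 libraries, ordered from left to right by the mean of the members' standardized log2 CPM. Lower panel: summed CPM of the 8 granule neuron markers in the same libraries, coloured by group. APP/PS1 control replicate 3 is at the left with 252 CPM of granule markers and exercise replicate 2 at the right with 915 CPM, and groups are mixed along the order.

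Ranked by the mean of the members' standardized log2 CPM, the highest libraries were APP/PS1 control replicate 3, exercise replicate 4, WT replicate 3, BCI-838 + exercise replicate 4 and BCI-838 + exercise replicate 1, so that 4 of the 5 groups were among the first 5. The lowest were exercise replicate 2, BCI-838 + exercise replicate 3 and exercise replicate 1. Granule neuron markers moved against this rank: their summed level was 252, 408, 166, 375 and 800 CPM in the 5 highest libraries and 915, 1034 and 930 CPM in the 3 lowest. Over the 24 libraries the members' mean and the granule neuron list had r = -0.64 and rho = -0.61, and r = -0.67 within groups. For oligodendrocyte and myelin genes r was 0.35 and rho 0.50, for oligodendrocyte precursors r was 0.41, for CA field neurons 0.36, for astrocytes 0.26, for microglia 0.03, for endothelial cells -0.03, for dorsal midbrain -0.02 and for choroid plexus -0.23. Within groups r was 0.38 for oligodendrocyte and myelin genes, 0.45 for precursors, 0.47 for CA field neurons, 0.30 for astrocytes, 0.16 for microglia, 0.04 for endothelial cells, -0.07 for dorsal midbrain and -0.44 for choroid plexus. With the 2 farthest libraries left out, the values within groups were -0.63 for granule neurons, 0.59 for oligodendrocyte and myelin genes, 0.41 for precursors, 0.40 for CA field neurons, 0.03 for astrocytes, 0.02 for microglia, 0.07 for endothelial cells, 0.02 for dorsal midbrain and -0.34 for choroid plexus. These are descriptions of 24 libraries of bulk tissue, given without a test. With the granule neuron list regressed out, all 21 pairs of members still had a positive r, with a median of 0.66 and a lowest r of 0.05. With the tissue measure taken out the median was 0.64 and the lowest r 0.06. With the oligodendrocyte list regressed out the median was 0.76. Beyond these values, the part of tissue composition in the shared course was not tested.

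Outside the 7 members, the gene whose level followed them most closely over the 24 libraries was an enzyme of the same pathway. Among 14628 genes with at least 1 CPM the highest r with the members' mean was that of Sc4mol (now Msmo1, the sterol C4 methyl oxidase) with 0.91. Also among the first 10 were Sec62 (0.82), Sulf2 (0.82), Alcam (0.81), Cntnap3 (0.80), Met (0.78) and Rims4 (0.78). Within groups Sc4mol was again the highest (0.93), and Sec62 (0.83) and Neto2 (0.82) were among the first 5.

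The whole lists followed less closely. Of the 16 other synthesis enzymes 15 had a positive r, with a median of 0.47, but Pmvk stood at 0.01 and Lbr at -0.25. For fatty acid synthesis, whose genes SREBP-1 is known to drive, all 12 of 12 were positive with a median of 0.52, led by Scd2 (0.75) and Elovl6 (0.74). Uptake and transport genes had a median of 0.28, with the sterol carrier Stard4 at 0.75 and Lrp8 at -0.42. Efflux and turnover genes had a median of 0.12, and the other genes of sterol sensing and SREBP processing had one of -0.15, among them Scap at -0.21 and Insig2 at -0.20. The median over all 14628 genes was -0.00.

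Tests of the wider pathway gave 1 call among the fixed lists. With the drug averaged over the wheel Tm7sf2, the gene of a sterol C14 reductase, fell by 0.31 on the log2 scale (SE 0.07), which edgeR's test put at an adjusted p of 0.0427. Tm7sf2 averaged 17.6 ± 2.26 CPM in BCI-838 + exercise and 18.6 ± 1.11 CPM in BCI-838, against 22.9 ± 2.61 CPM in exercise and 22.1 ± 2.40 CPM in APP/PS1 control, with 21.6 ± 0.901 CPM in WT (SD). The highest BCI-838 library had 20.1 CPM, inside the ranges of exercise (19.7 to 26.6) and of APP/PS1 control (18.6 to 24.3). The value lay between -0.34 and -0.28 in the 24 fits that left out 1 library, but the call was close to the threshold: it was kept in 7 of those fits, namely those without WT replicates 1 or 3, APP/PS1 control replicate 3, exercise replicates 3 or 4, or BCI-838 + exercise replicates 2 or 5, and it was lost without any of the other 17 (adjusted p between 0.0206 and 0.135 over all 24). Without the 4 libraries rich in Ttr the log2 fold change was -0.38 with an adjusted p of 0.103. Tm7sf2 lies on chromosome 19 from 6062821 to 6068373 and shares 532 exonic bases with Vps51 on the same strand. How reads from that stretch were counted, or whether they were left out, is not stated.

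**Figure D4:**
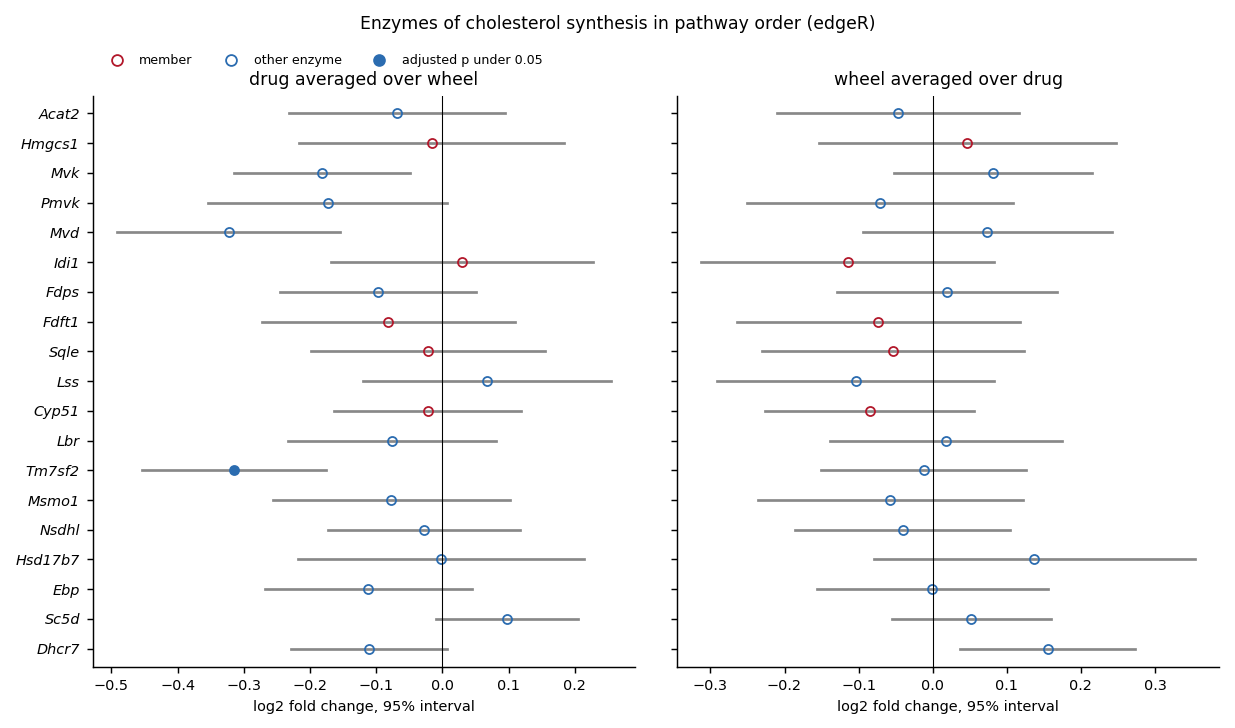
Log2 fold changes with 95% intervals (horizontal axes) of enzymes of cholesterol synthesis, in pathway order from top to bottom, for the drug averaged over the wheel (left) and the wheel averaged over the drug (right). Members are red, other enzymes blue, and the filled point is Tm7sf2 at -0.31, which passed an adjusted p under 0.05.

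In the same contrast 17 of the 21 synthesis enzymes had a negative value and 4 a positive one, with a median of -0.07 (all genes -0.01), and 1 was called lower and 0 higher. Mvd, the mevalonate diphosphate decarboxylase, was at -0.32 on the log2 scale (SE 0.08, adjusted p = 0.0703), with 15.5 ± 2.78 CPM in BCI-838 + exercise and 14.4 ± 2.34 CPM in BCI-838, against 19.0 ± 1.45 CPM in exercise and 18.4 ± 1.49 CPM in APP/PS1 control. Neither Mvd nor Mvk (-0.18, adjusted p = 0.151), the mevalonate kinase, passed. Of uptake and transport genes 9 of 13 were positive with a median of 0.06 and 0 were called, the nearest being Vldlr, the VLDL and reelin receptor, at 0.23 (SE 0.06, adjusted p = 0.0703) and Lrp1, a receptor of apolipoprotein E, at 0.30 (SE 0.09), which did not pass either. Of efflux and turnover genes 8 of 13 were positive with a median of 0.03 and 0 called, and Abca1, the cholesterol exporter, had 0.37 (SE 0.10, adjusted p = 0.0910). Genes of fatty acid synthesis (9 of 12 positive, median 0.07) and of sterol sensing and SREBP processing (8 of 14 positive, median 0.03) also had 0 calls. At an unadjusted p under 0.05 there were 3 genes each of the synthesis and uptake lists, 4 of the efflux list and 1 each of the fatty acid and sterol sensing lists. The share over all tested genes in this contrast was 18.0%. Of the choroid plexus and ependyma markers 12 of 12 were lower in this contrast, at a median of -1.19 on the log2 scale, with 0 called and 3 at an unadjusted p under 0.05. Their summed level was between 25.5 and 392 CPM in BCI-838 + exercise and 33.1 and 41.0 CPM in BCI-838, against 31.6 to 44.6 CPM in exercise and 35.1 to 1805 CPM in APP/PS1 control. Endothelial markers were 8 of 8 lower (median -0.11, 0 called) and oligodendrocyte and myelin genes 10 of 12 lower (median -0.11, 0 called). Of the 8 granule neuron markers 5 were positive, and 1 of the other 3, Calb1, was called lower. Without the 4 libraries rich in Ttr, 19 of the 21 synthesis enzymes were negative at a median of -0.11 with 0 called, and Mvd was at -0.35 (adjusted p = 0.199), Vldlr at 0.27 (adjusted p = 0.182), Lrp1 at 0.18 (adjusted p = 0.414) and Abca1 at 0.34 (adjusted p = 0.267). Fewer uptake and efflux genes were then positive, 7 of 13 and 5 of 13, with medians of 0.04 and -0.00. Fatty acid synthesis genes were then positive in 7 of 12 cases, at a median of 0.01. With the choroid plexus covariate edgeR put Tm7sf2 at -0.31 (adjusted p = 0.142). With the oligodendrocyte covariate Tm7sf2 was at -0.30 (adjusted p = 0.0364), and with the tissue covariate at -0.33 (adjusted p = 0.0241). Beyond these fits, the part of these cell types in the value of Tm7sf2 was not tested, nor was their part in the values of the lists.

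For the wheel averaged over the drug, no gene of these lists was called by edgeR. The synthesis enzymes had a median log2 fold change of -0.01 with 8 of 21 positive. Of these enzymes 1, Dhcr7, a late reductase of the pathway, had an unadjusted p under 0.05 (9.99% of all genes), with 0.16 (SE 0.06, adjusted p = 0.443). Insig2, the paralogue of Insig1, had -0.13 (SE 0.04, adjusted p = 0.443). Of fatty acid synthesis genes 10 of 12 were negative, with a median of -0.07 (all genes 0.00). Without the libraries rich in Ttr the medians were -0.08 for the synthesis enzymes (6 of 21 positive) and -0.16 for fatty acid synthesis (10 of 12 negative). In exercise against WT all 12 of 12 fatty acid synthesis genes were negative with a median of -0.14 and values between -0.31 and -0.01. Of these genes edgeR called 0, with 2 at an unadjusted p under 0.05 (9.09% of all genes). Endothelial markers were 8 of 8 higher there (median 0.22, 4 at an unadjusted p under 0.05). Granule neuron markers were 7 of 8 higher (median 0.22), oligodendrocyte and myelin genes 10 of 12 higher (median 0.19) and astrocyte markers 10 of 12 lower (median -0.05). None of these markers was called, and their part in the values was not tested.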

How the data were processed

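RNA sequencing of snap-frozen dentate gyrus gave the 24 libraries, and per the labels' protocols all RNA had an integrity number of 8.4 or more. The authors deposited whole-number read counts per gene, made with STAR and HTSeq on build mm10 per the submitters' processing notes. No version, annotation or strand of counting is given there. The deposited normalised signal table (18357 genes, each library scaled by a single factor, 0.880 to 1.17) was checked and not tested. Groups came from the labels, and replicates are mice per the labels' protocols. No pair of libraries agreed within sampling noise (lowest chi-square per gene 19.4).

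Genes were kept by filterByExpr (minimum count 10, minimum total 15), scaled with TMM and fitted over all 24 libraries with 1 mean per group in edgeR 4.0.16 (R 4.3.3). Differences were tested with its robust quasi-likelihood F test, with calls at p under 0.05 after Benjamini-Hochberg adjustment over all 18286 genes. The fit was tested on simulated data. Log2 CPM used a prior count of 2. Alternatives were DESeq2 1.42.0, limma 3.58.1 voom with quality weights, DESeq size factors, other filters, a replicate block, covariates, subsets of libraries and leaving out each library. Those for the pair correlations, and subsets of libraries for the lists and other named genes, were chosen after seeing the data. Exon lengths and coordinates are from GENCODE M21 (GRCm38), the assembly mm10 names, and 2 symbols were matched through older names. Named genes are the members, the called genes of the pathway lists and those with the smallest p in a list, and the genes most alike by r; others were chosen after their values were seen. A few list genes enter the counts without being reported here. The members and lists were chosen with earlier results of these data known. Members had counts between 638 and 18188 per library, so the spread between libraries is the main error. Within it, differences between mice and between dissections cannot be told apart.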

Additional observations from a re-analysis of the deposited data

Results flagged for a closer look

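Of 35 sets of libraries (7 members in 5 groups) 3 held a library far from the others of its group by Dixon's test at the 95% level, and chance flags about 1 in 20 such sets. The sets share libraries, and the members varied together, so the sets are not independent. Hmgcs1 had 293 CPM in APP/PS1 control replicate 3, against 193 to 220 CPM in the other 4 libraries of that group. Fdft1 had 83.1 CPM in exercise replicate 4, against 66.3 to 70.9 CPM in the other 4. Srebf2 had 264 CPM in WT replicate 3, against 223 to 233 CPM in the other 4. These 3 libraries were the highest of all 24 in the mean of the members' standardized log2 CPM, and they had the granule neuron sums of 252, 408 and 166 CPM given above. That mean is built from the same members as the flags, so the rank adds no separate evidence. The part of tissue composition in these values was not tested.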

How the results depend on the processing

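Of 2940 log2 fold changes of members under alternatives (35 for each of 84 values), 2939 stayed on their side of the threshold and 1 did not: Srebf2 for the drug averaged over the wheel by voom, which made the count of members called there 1. A change of sign occurred in 114 of them, each with the value or its alternative within its SE of 0 and neither called, and 51 of the 84 values had none. No member was called when any 1 library was left out (0 to 0 in all 12 comparisons). The count of all genes called depended strongly on the setting, and the cause was not tested. In the order APP/PS1 control vs WT, BCI-838, exercise and BCI-838 + exercise vs APP/PS1 control, BCI-838 + exercise vs exercise, BCI-838 + exercise vs BCI-838, interaction, drug averaged, wheel averaged, BCI-838, exercise and BCI-838 + exercise vs WT, DESeq2 called 14, 170, 61, 82, 364, 256, 77, 608, 7, 75, 6 and 11 genes. Leaving out each library gave 2 to 3, 0 to 12, 0 to 27, 0 to 17, 0 to 400, 0 to 2, 0 to 0, 0 to 883, 0 to 1, 3 to 19, 2 to 4 and 2 to 9. By voom the counts that moved over 1.5 times were 483 (BCI-838 vs APP/PS1 control), 0 (exercise vs APP/PS1 control), 1012 and 936 (BCI-838 + exercise vs exercise and vs BCI-838), 2193 (drug averaged), 1 (wheel averaged), 181 (BCI-838 vs WT) and 468 (exercise vs WT). For exercise vs APP/PS1 control the single call became 0 with the replicate block, without the 4 libraries rich in Ttr, with the choroid plexus covariate, with the oligodendrocyte covariate and with the compared groups alone. For the drug averaged over the wheel the count was 96 with a filter of 1 CPM in 5 libraries, 0 without the libraries rich in Ttr, 0 with the choroid plexus covariate, 127 with the oligodendrocyte covariate, 251 with the tissue covariate and 17 with the compared groups alone. The tissue covariate gave 4 in BCI-838 vs APP/PS1 control, 1 in BCI-838 + exercise vs exercise and 32 in BCI-838 vs WT. The compared groups alone gave 1 in APP/PS1 control vs WT, 9 in BCI-838 vs APP/PS1 control, 111 in BCI-838 + exercise vs BCI-838 and 1 in exercise vs WT.

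With the replicate number as a block 1 gene was called in BCI-838 + exercise vs APP/PS1 control, and no member call changed. The numbers do not pair the mice: over 46 pairs of same-numbered libraries of different groups the correlation of their deviations lay between -0.55 and 0.60 with a median of 0.00. Tm7sf2 for the drug averaged over the wheel was called in 13 of 35 alternatives. Its adjusted p by edgeR was 0.0509 without the filter, 0.0594 with the block, 0.142 with the choroid plexus covariate and 0.0714 with the compared groups alone. With the tissue covariate it was 0.0241 and with the oligodendrocyte covariate 0.0364. By DESeq2 the adjusted p of Tm7sf2 was 0.00344 and by voom 0.00950, where these tools called 3.68% and 12.0% of all genes. Another scaling moved the median gene by less than 0.1 on the log2 scale in every comparison. Precision is limited by the spread between libraries, with 4 or 5 per group.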

Other observations

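The ratio of Srebf2 counts to Insig1 counts within a library was chosen after the values were seen and is given without a test. It was between 2.97 and 5.11 in BCI-838 + exercise (median 4.26), between 2.70 and 3.41 in BCI-838 (median 3.23), between 2.30 and 3.38 in exercise (median 2.72), between 2.65 and 3.61 in APP/PS1 control (median 2.86) and between 2.23 and 3.22 in WT (median 2.77). The ranges of all groups overlap. For Hmgcs1 over Insig1 the medians were 3.39 in BCI-838 + exercise, 2.49 in BCI-838, 2.53 in exercise, 2.78 in APP/PS1 control and 2.73 in WT. Uptake and transport genes were positive in 11 of 13 cases in BCI-838 against APP/PS1 control, with a median log2 fold change of 0.12 (all genes 0.00). There were 0 calls by edgeR among them, 4 having an unadjusted p under 0.05 (10.2% of all genes). Without the libraries rich in Ttr 7 of 13 were positive, with a median of 0.02 and 2 APP/PS1 control libraries left. With all libraries astrocyte markers were positive in 11 of 12 cases there (median 0.16) and choroid plexus and ependyma markers negative in 11 of 12 (median -4.23, 11 at an unadjusted p under 0.05), with 0 of either called.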
